A study of Mus musculus with 6 samples.

Results

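The genes described here are 9 genes by which macrophages are commonly recognised: Csf1r, Mertk, Spi1, Maf, Adgre1, Cd14, Cd68, Itgam and Lgals3. They were chosen by name, not by their values, as every probe whose gene name on the array is a member, with Adgre1 listed under its older name Emr1. This gave 9 of 34755 genes and 16 of 55627 probes: 3 probes each for Csf1r and Itgam, 2 each for Maf, Adgre1 and Cd68, and 1 each for Spi1, Cd14, Lgals3 and Mertk. All 16 probes were well above background on all 6 arrays.

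Macrophages depend on CSF1, a growth factor that binds the receptor tyrosine kinase CSF1R and keeps the cells alive. The transcription factor PU.1, encoded by Spi1, opens the enhancers of myeloid genes, and partner factors such as c-Maf act on top of it in mature macrophages. The surface and lysosomal proteins of the other genes serve to sense microbes, to adhere and to take up particles and dead cells. In a RIP-chip experiment, RNA held by an antibody to Argonaute 2 (AGO2), the protein that carries microRNAs to their target transcripts, is compared on arrays with RNA held by a control antibody. A transcript more abundant with AGO2 than with control IgG is a candidate target of the microRNAs in the cell.

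The samples were bone marrow-derived macrophages grown with L929-conditioned medium, a source of CSF1. All mice carried LysM-Cre, which expresses Cre recombinase in myeloid cells, and the Apoe-/- allele, so by the labels the WT controls are themselves Apoe-deficient and Cre-bearing. The WT group had Dicer wt/wt and the KO group Dicer flox/flox, Dicer being the enzyme that cuts microRNA precursors. The labels give male mice of 6-8 weeks for both. From each genotype there was 1 array each of input RNA, of RNA precipitated with a monoclonal antibody to AGO2 (AGO2-RIP) and of RNA precipitated with control IgG (IgG-RIP). The sources used here do not give how many animals were used, or whether the fractions of a genotype came from 1 culture.

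A level is log2 of the array's processed signal minus the 75th percentile of that array, so that 0 is the signal of a spot brighter than 75% of the spots. Differences between arrays are on the same log2 scale, and 1 is a 2-fold difference. With 1 array per group they have no replicate check. Probes printed on 10 spots of an array varied with an SD of 0.14 to 0.18 between spots, which gives a difference of 2 arrays an SD of 0.20 to 0.24 from spot noise alone; culture, precipitation and amplification are not in that figure. Every fraction was set against the same input and IgG-RIP arrays, so the comparisons share arrays and are not independent of each other.

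Between 37.6% and 46.3% of 59305 spots lay well above background on an array, and 0 were saturated. Xist, expressed from the inactive X chromosome, was above background on 3 of 3 WT arrays and 0 of 3 KO arrays, and the Y-linked Ddx3y and Eif2s3y on 0 of 3 WT and 3 of 3 KO arrays. The WT arrays therefore go against their label of male, and genotype and sex cannot be told apart in any comparison of the KO with the WT arrays. The level of Dicer1 was 0.22, 0.93 and 0.18 on the WT input, AGO2-RIP and IgG-RIP arrays, and -0.55 and 0.94 on the KO input and AGO2-RIP arrays. In KO IgG-RIP its probe was not well above background. The files do not say whether its probe lies in the deleted part, so Dicer1 does not check the labels. Apoe was above background on all 6 arrays, with levels of -0.83 to 1.18, and the files do not say where its probe lies relative to the inactivated part either. Lyz2, the lysozyme gene whose locus carries LysM-Cre, was singled out after its values were seen. Its signal was at least 195-fold higher on the KO than on the WT input array, where its probe was not well above background. Lyz2 differed the same way in AGO2-RIP, at least 72.3-fold, and in IgG-RIP, where 38.8-fold was measured. The WT and KO arrays thus differ in the signal at the Cre locus and of sex-linked genes, besides the Dicer genotype given by the labels. The part of these differences in the values below was not tested.

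The labelled cell type was checked against markers of 9 other cell types. Between 0 and 4 markers of each list were above background on an array, while the 9 macrophage genes were above it on all. The sum of the 9 genes' signals, relative to the array's 75th percentile, ran from 981 to 1694, and without Itgam, whose brightest probe is described further on, from 291 to 793. That of 10 neutrophil markers ran from 2.94 to 12.8. The sums of the B cell, T cell, mast cell, erythroid, osteoclast and stromal lists stayed between 0.406 and 6.46. Some markers were above background on 0 of 6 arrays, such as Ly6g, Mpo and Elane of neutrophils. Cd79a of B cells and Cd3d and Cd8a of T cells were too. Others of these lists were above it. Among neutrophil markers Mmp8 was on 6 arrays, with levels of 0.96 to 3.49, S100a8 and S100a9 on 4 each and Camp on 1. Among B cell markers Pax5 was on 5 and Cd79b on 2, and among T cell markers Cd3e on 5 and Lck on 4. The dendritic list reached 126 through Siglech alone among its bright genes, with levels of 5.85 to 6.96. The megakaryocyte list reached 98.4 through Pf4, with levels of 4.16 to 6.60. Precipitation changes which RNA is present, and in bulk RNA fewer cells of a type and less RNA per cell cannot be told apart.

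A probe of this array has 60 bases and reads 1 short stretch of a transcript, and several results below differ between probes of 1 gene. Coding-region probes of Itgam, Adgre1 and Spi1 are shown here as the array files give them, with their position in the mouse build mm9. Spi1 has 1 probe, so no such difference rests on it. In Itgam, the probe near the 5′ end of the transcript, starting at base 270, lies at chr7:135212140-135212199, and the probe starting at base 3410 lies at chr7:135260275-135260334, both on the plus strand.
Itgam, base 270: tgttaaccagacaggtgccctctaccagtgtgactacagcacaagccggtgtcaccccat
Itgam, base 3410: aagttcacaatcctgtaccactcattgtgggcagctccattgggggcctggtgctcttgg
The Adgre1 probe at base 2732 lies at chr17:57620350-57620409 on the plus strand. The Spi1 probe at base 275 was placed on chr2 from 90939665 to 90953452 on the plus strand, a span of 13788 bases, so it crosses a splice junction and matches the joined exons.
Adgre1, base 2732: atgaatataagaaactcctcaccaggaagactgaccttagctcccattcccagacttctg
Spi1, base 275: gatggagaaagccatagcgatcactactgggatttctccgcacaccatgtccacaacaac
The other 12 probes are named by their starting base, and of these only the Maf probes are given with coordinates. Where a gene had several probes, the one with the highest mean signal stands for it, and its other probes are given beside it.

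**Figure D1:**
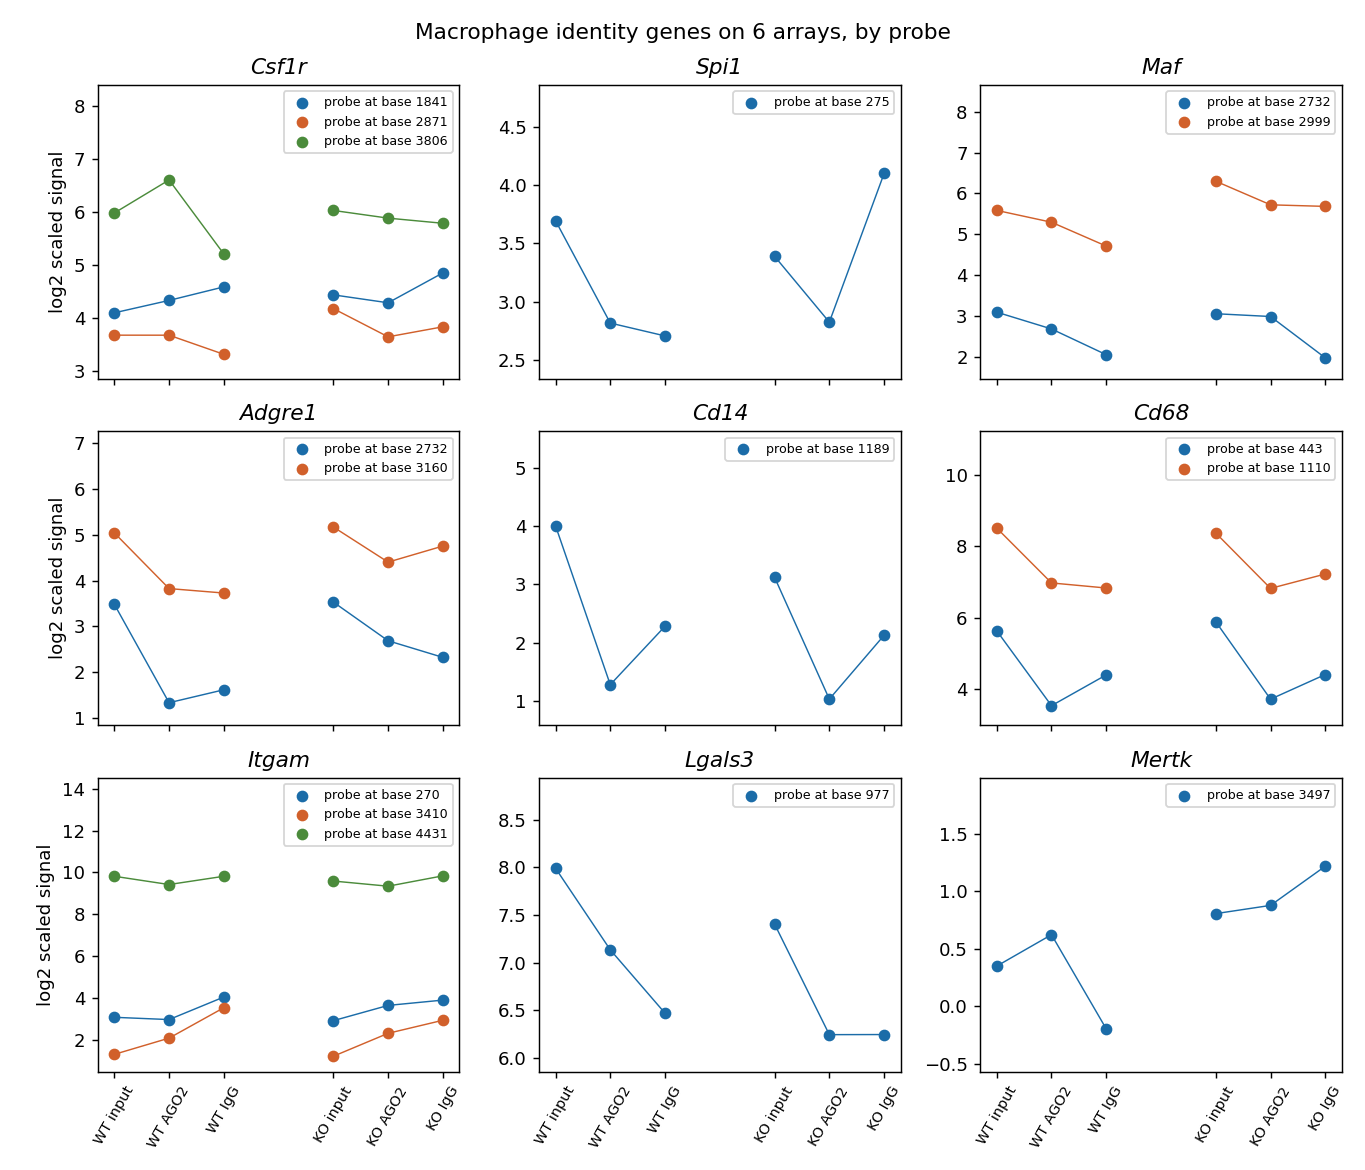
Level of each of the 16 probes on the 6 arrays (log2 of processed signal minus the array's 75th percentile, 1 array per group, no error), 1 panel per gene and 1 colour per probe; vertical axes differ between panels. Cd14, Cd68 and Adgre1 were lower in both precipitates than in input in both genotypes, while the 2 lower Itgam lines were highest in IgG-RIP.

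Csf1r encodes the receptor for CSF1 and IL-34. Its brightest probe, at base 3806, had levels of 5.98, 6.60 and 5.21 in WT input, AGO2-RIP and IgG-RIP and of 6.03, 5.88 and 5.78 in the same KO fractions. WT AGO2-RIP was the highest of the 6 and WT IgG-RIP the lowest, and the 3 KO arrays lay close together. The probe at base 2871 had levels of 3.68, 3.68 and 3.32 in WT and of 4.18, 3.65 and 3.84 in KO, and the probe at base 1841 had 4.10, 4.33 and 4.59 in WT and 4.44, 4.29 and 4.85 in KO. At base 1841 the IgG-RIP arrays, not the AGO2-RIP arrays, were the highest of their genotype. AGO2-RIP minus IgG-RIP in WT was therefore 1.39, 0.36 and -0.25 at bases 3806, 2871 and 1841.

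Mertk encodes a receptor tyrosine kinase that binds GAS6 and protein S on dying cells and starts their uptake. Its level was 0.35, 0.62 and -0.20 in WT input, AGO2-RIP and IgG-RIP, and 0.80, 0.88 and 1.22 in KO. All 3 KO arrays lay above the 3 WT arrays. Mertk was read by 1 probe.

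Spi1, the gene of PU.1, had levels of 3.70, 2.82 and 2.70 in WT input, AGO2-RIP and IgG-RIP, and of 3.39, 2.82 and 4.10 in KO. The KO IgG-RIP array stood above all others, including both inputs, and the other 3 precipitates were nearly level with each other. Maf, the gene of c-Maf, had levels of 5.59, 5.30 and 4.71 in WT and of 6.30, 5.72 and 5.68 in KO at base 2999. At its other probe, at base 2732, they were 3.09, 2.68 and 2.05 in WT and 3.06, 2.99 and 1.98 in KO. Input was highest and IgG-RIP lowest in both genotypes at both Maf probes, by less than the spot noise for the KO precipitates at base 2999 and the KO input and AGO2-RIP at base 2732. The probes lie on 2 stretches of chromosome 8, from 118227736 to 118227795 and from 118207273 to 118207332 on the minus strand, and the second was designed on another transcript model.

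Adgre1, formerly Emr1, encodes an adhesion receptor that is a standard surface marker for sorting mouse macrophages. Its brightest probe, at base 3160, had levels of 5.04, 3.83 and 3.73 in WT input, AGO2-RIP and IgG-RIP, and of 5.17, 4.40 and 4.75 in KO. At the probe at base 2732, shown above, the levels were 3.48, 1.34 and 1.62 in WT and 3.53, 2.69 and 2.32 in KO. The 2 inputs differed by less than the spot noise at either probe and stood above all precipitates, and both KO precipitates stood above their WT counterparts. Cd14 encodes the co-receptor that hands lipopolysaccharide to TLR4. Its level was 4.01, 1.28 and 2.28 in WT and 3.12, 1.03 and 2.13 in KO. Input was highest and AGO2-RIP lowest in both genotypes.

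Cd68 encodes a heavily glycosylated protein of endosomes and lysosomes. Its levels at base 1110 were 8.51, 6.97 and 6.83 in WT input, AGO2-RIP and IgG-RIP, and 8.37, 6.82 and 7.22 in KO. At base 443 they were 5.63, 3.53 and 4.39 in WT and 5.88, 3.71 and 4.40 in KO. Input was the highest fraction at both probes, in both genotypes. Lgals3 encodes galectin-3, a carbohydrate-binding protein that marks damaged endosomes and is secreted by macrophages. Its level was 7.99, 7.13 and 6.47 in WT and 7.40, 6.24 and 6.24 in KO, again highest in input.

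Itgam encodes CD11b, the alpha chain of complement receptor 3. Its brightest probe, at base 4431, had levels of 9.82, 9.42 and 9.81 in WT input, AGO2-RIP and IgG-RIP, and of 9.59, 9.34 and 9.84 in KO. All 6 arrays were nearly level there. The 2 coding probes shown above had levels of 3.08, 2.97 and 4.05 in WT and 2.92, 3.65 and 3.90 in KO at base 270, and of 1.31, 2.09 and 3.54 in WT and 1.22, 2.31 and 2.94 in KO at base 3410. At both of these, IgG-RIP was the highest fraction in each genotype.

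The brightest Itgam probe contains a run of 20 bases in which C and A alternate. Of the other probes on the array, 10 have a run of the same length, and on WT input their levels ran from 7.22 to 10.6 with a median of 9.46, against 9.82 for Itgam. The other arrays gave medians of 9.11 to 9.79 for these 10 probes and 9.34 to 9.84 for Itgam. By comparison, the median over 16248 probes above background on all arrays was 1.62 on WT input, and the 95th percentile was 6.66. The level of the Itgam probe at base 4431 thus lay within the range of these 10 probes, though some of its differences between arrays did not, as given below. Whether its signal comes from Itgam RNA was not tested, and the values at bases 270 and 3410 are given with it below.

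**Figure D2:**
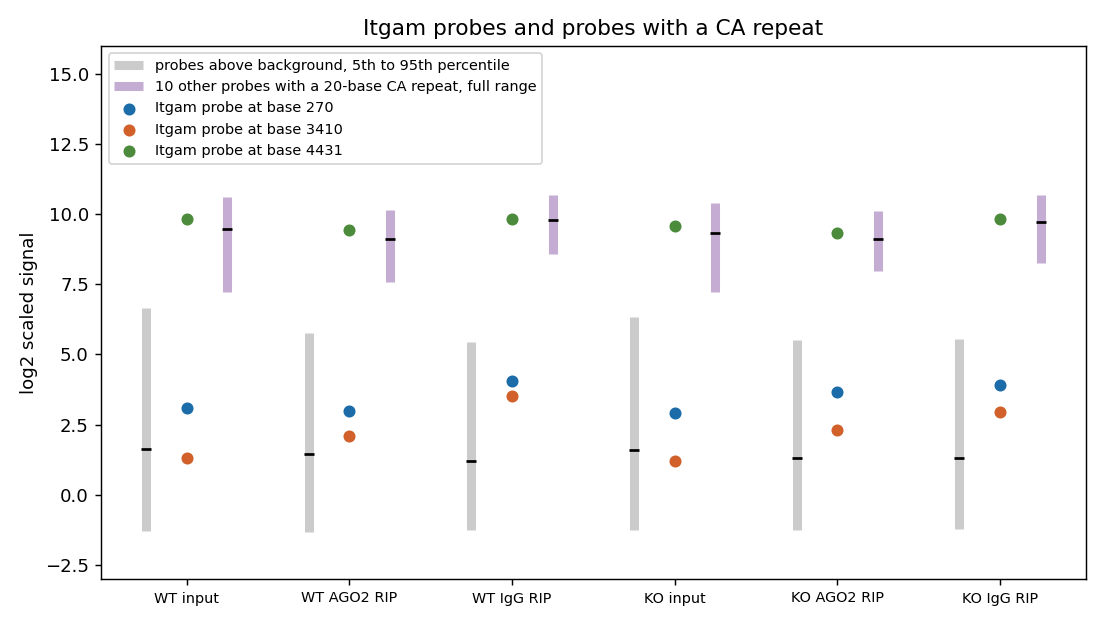
Level of the 3 Itgam probes (points), the full range and median of 10 other probes with a 20-base run of alternating C and A (violet bars), and the 5th to 95th percentile and median of 16248 probes above background on all arrays (grey bars), on each of the 6 arrays in log2 units. The Itgam probe at base 4431 lies within the violet range on every array, and the probes at bases 270 and 3410 lie within the grey range.

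Before precipitation no macrophage gene differed by 2-fold between KO and WT, and few genes of any kind did. KO minus WT input ran from -0.89 for Cd14 to 0.71 for Maf, and 0 of 9 genes were at least 2-fold higher, against 1.05% of 14626 genes measured, or lower, against 1.74%. The median of the 9 was -0.14 and that of all genes -0.08. Cd14 lay lower than all but 2.73% of genes and Lgals3 than all but 9.6%, and Maf lay higher than 96.6% of them and Mertk than 90.4%. The Maf difference was not seen at its second probe, where KO minus WT input was -0.04. Lgals3 was -0.59, Spi1 -0.31, Itgam -0.23 and Cd68 -0.14, and Mertk was 0.46, Adgre1 0.13 and Csf1r 0.05. Lgals3, Mertk and Spi1, the largest of these, have 1 probe each and so no second reading within the array.

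Limma, fitted to 18891 genes with fraction and genotype as additive terms, used the 3 fractions as the only repeats of a genotype and called 0 genes between KO and WT at an adjusted p of 0.05, with 839 at an unadjusted p under 0.05. Mertk was 0.71 ± 0.37 (SE) higher in KO over the 3 fractions and higher in 3 of 3. Maf was 0.70 ± 0.32 higher, also in 3 of 3, and Lgals3 0.57 ± 0.32 lower in 3 of 3 by the same model, whose Benjamini-Hochberg adjusted p was 1.00 for each of the 9 genes. At the second Maf probe KO minus WT was -0.04, 0.30 and -0.08 in input, AGO2-RIP and IgG-RIP.

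Against input, the AGO2-RIP arrays held less of most macrophage genes and of most genes of any kind. Below input were 7 of 9 genes in WT and 8 of 9 in KO. Of all genes, 41.9% in WT and 41.7% in KO lay above it. AGO2-RIP minus input in WT was -2.73 for Cd14, -1.54 for Cd68 and -1.22 for Adgre1, so 3 of 9 genes were at least 2-fold lower, against 26.5% of all genes, and 0 were at least 2-fold higher, against 15%. In KO, Cd14 was -2.09, Cd68 -1.55 and Lgals3 -1.16, again 3 of 9 at least 2-fold lower against 26.6% of all genes, with 0 higher against 14.7%. Itgam is counted here at base 4431, with -0.40 in WT and -0.25 in KO. At bases 270 and 3410 Itgam was -0.11 and 0.78 in WT. In KO it was 0.73 and 1.10 there, so base 3410 was at least 2-fold higher than input. The medians of the 9 counted values were -0.86 in WT and -0.58 in KO, where all genes had -0.24 in both. These shares are near those of all genes, and the count is not a result about the macrophage genes as a group. It followed the scaling, with 5 and 6 genes at 2-fold when arrays were centred on their median, and with quantile normalization 3 of 9 genes in WT and 4 of 9 in KO lay above input.

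Cd14 stood out among the 9. It was 6.63-fold lower in AGO2-RIP than in input in WT and 4.27-fold lower in KO, and only 2.32% and 6.25% of genes lay lower still. In limma over both genotypes Cd14 fell by 2.41 ± 0.41 (SE) on the log2 scale in AGO2-RIP against input, with a Benjamini-Hochberg adjusted p of 0.0388, where 9.54% of 18891 genes were called, 5.31% lower and 4.23% higher. Cd14 was the 1 member called of 9. The adjusted p ranged from 0.00422 to 0.325 over the alternatives, and the call was lost with quantile normalization (0.0711) and without the WT input (0.325), WT AGO2-RIP (0.140), KO input (0.252) or KO AGO2-RIP array (0.195). Cd68 was 1.55 ± 0.39 lower with an adjusted p of 0.0649 in the same fit, which does not meet the threshold of 0.05.

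The IgG-RIP arrays hold RNA bound without an antibody to AGO2. In WT, IgG-RIP minus input was -1.73 for Cd14, -1.68 for Cd68, -1.52 for Lgals3 and -1.31 for Adgre1, making 4 of 9 genes at least 2-fold lower against 37.2% of all genes, and 0 higher against 18.6%. All 9 were below 0, Itgam at base 4431 by less than 0.01, and 39% of all genes were above it. The count at 2-fold was 8 with centring on the median and 1 with quantile normalization. With quantile normalization 2 of the 9 were above 0, and without the probes that carry the repeat 1 was, namely Itgam. In KO, 2 of 9 were at least 2-fold lower, Lgals3 with -1.16 and Cd68 with -1.15, against 29% of all genes, and 0 were higher against 17.6%. Cd14 at -0.996 lay just short of 2-fold, and Spi1 at 0.71, Mertk at 0.41 and Itgam at 0.25 lay above input. With quantile normalization 5 of the 9 lay above input in KO. The shares at least 2-fold lower are near those of all genes, and the coding Itgam probes lay above input in both genotypes.

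Limma called Cd68 alone of the 9 in this contrast. Cd68 fell by 1.42 ± 0.39 (SE) in IgG-RIP against input over both genotypes, with a Benjamini-Hochberg adjusted p of 0.0486, where 30.1% of genes were called, 15.9% lower and 14.3% higher. Lgals3 (-1.34, adjusted p = 0.0563) and Cd14 (-1.36, adjusted p = 0.0579) fell short of the threshold in limma by little. The adjusted p for Cd68 ranged from 0.0106 to 0.338. The call was lost with quantile normalization (0.0651), with no filter on dim genes (0.0630), and without the WT input (0.338), WT AGO2-RIP (0.0780), WT IgG-RIP (0.147), KO input (0.260) or KO AGO2-RIP array (0.0780).

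**Figure D3:**
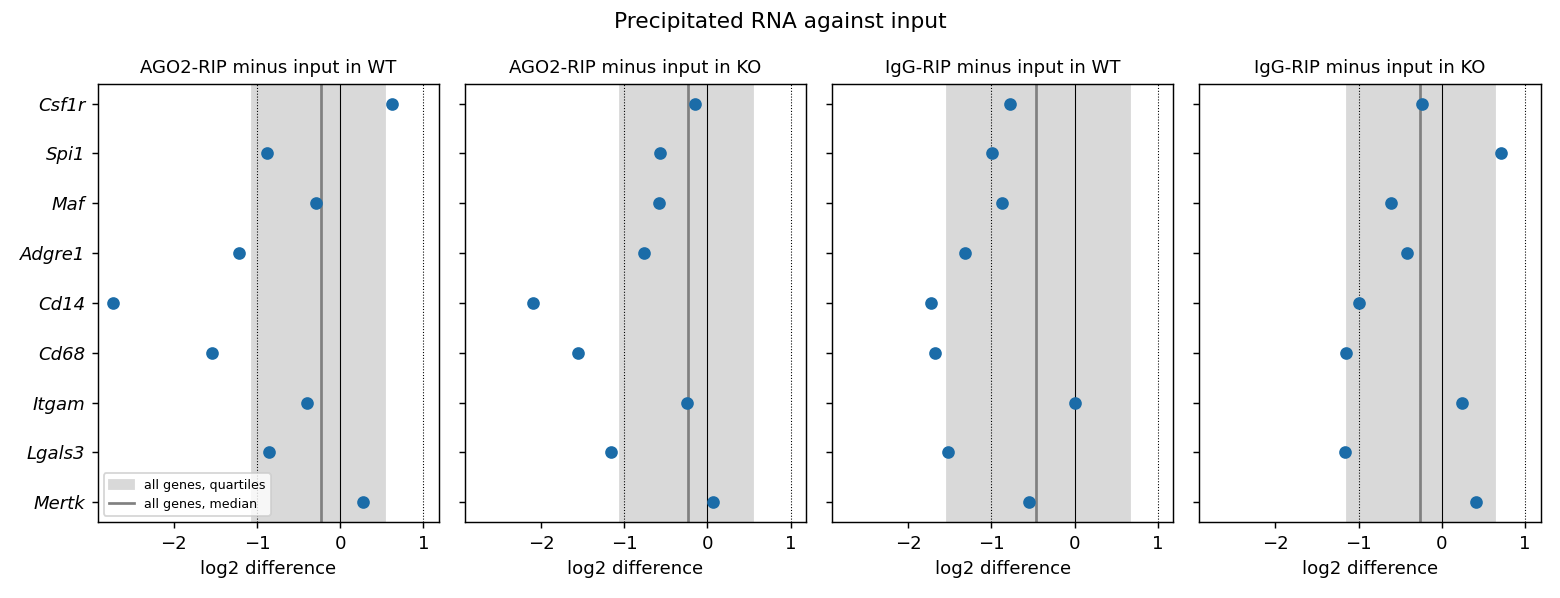
Log2 difference of each precipitate from input for the brightest probe of each of the 9 genes (points, 1 array minus 1 array, no error), with the median (grey line) and quartiles (grey band) of all genes measured and dotted lines at 2-fold. Cd14 lies far left in both AGO2-RIP panels, at -2.73 and -2.09, and Cd68 lies below -1 in all 4 panels.

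The position of a probe along its transcript moved with these differences. Over 12305 probes that had a position and were above background on all arrays, IgG-RIP minus input in WT had a median of -1.73 for probes in the first 500 bases and of 0.03 for probes beyond base 4000, and in KO the medians were -1.28 and 0.00. AGO2-RIP minus input in WT ran from -1.09 to 0.29. Across probes the Spearman correlation of position with the difference was 0.33 for IgG-RIP in WT and 0.35 for AGO2-RIP in WT; the probes share the same 2 arrays in each case and are not independent. Lgals3, at base 977, differed from the median of probes between bases 500 and 1000 by -0.18 in WT IgG-RIP, -0.12 in WT AGO2-RIP, -0.21 in KO IgG-RIP and -0.27 in KO AGO2-RIP. The part of position in its values was not tested.

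Cd14, at base 1189, remained below probes of its own stretch (bases 1000 to 1500) in AGO2-RIP, by 2.28 in WT and 1.46 in KO, and less so in IgG-RIP, by 0.71 and 0.28. Adgre1 at base 2732 was 2.05 below its stretch in WT AGO2-RIP and 1.42 below in WT IgG-RIP. The Itgam probes shown above were on the other side. At base 270, Itgam was 2.70 above probes of the first 500 bases in WT IgG-RIP and 2.26 above them in KO, and at base 3410 it was 2.49 and 1.92 above its stretch. Spi1, read at base 275, was 0.74 above its stretch in WT and 1.99 above in KO.

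**Figure D4:**
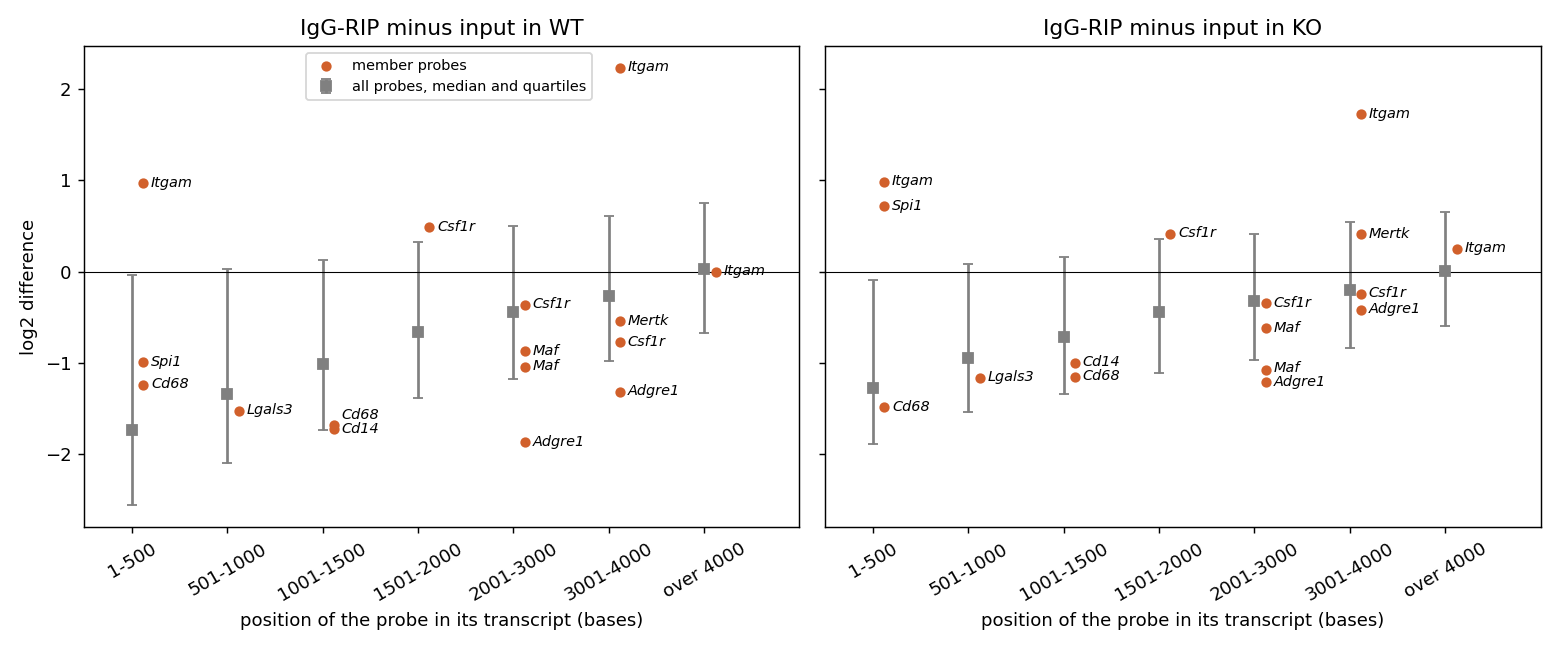
Log2 difference of IgG-RIP from input in WT and KO by the starting base of the probe in its transcript; grey squares and bars are the median and quartiles of all probes in a stretch, 12305 probes in all, and orange points are the 16 probes of the 9 genes. The grey medians climb from -1.73 to 0.03 in WT and from -1.28 to 0.00 in KO, and the Itgam probes at bases 270 and 3410 lie far above them.

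For Itgam the coding probes gave larger differences of IgG-RIP from input than the bright probe. IgG-RIP minus input was 0.97 and 2.23 in WT at bases 270 and 3410, and 0.98 and 1.72 in KO, against -0.00 and 0.25 at base 4431. The 10 other probes with the repeat had medians of 0.29 in WT and 0.48 in KO. They ran from 0.057 to 1.44 in WT and from 0.2499 to 1.16 in KO. Itgam at base 4431 thus lay below all of them, in KO barely so, at 0.2486. In AGO2-RIP minus IgG-RIP in WT, Itgam at base 4431 was -0.39, above their highest of -0.53. In KO it was -0.49, within their range of -0.69 to -0.30. AGO2-RIP minus IgG-RIP was -1.08 and -1.45 at the coding probes in WT and -0.25 and -0.62 in KO. As read there, the AGO2-RIP signal of Itgam was below that of IgG-RIP on the arrays of both genotypes, with no replicate check. In KO at base 270 the difference was near the median of all genes, -0.19, and 0.02 below that of probes in its stretch. The range of 2.23 between the 3 Itgam probes in IgG-RIP minus input in WT compares with a median of 1.20 over 479 genes with 3 probes.

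Against IgG-RIP, the comparison that asks for AGO2-bound RNA, the macrophage genes were split. In WT, Csf1r was 1.39 higher in AGO2-RIP (2.63-fold) and Cd14 1.00 lower, so 1 of 9 genes was at least 2-fold higher, against 20.5% of 15159 genes, and 1 at least 2-fold lower, against 22.2%. Mertk was 0.82, Lgals3 0.67 and Maf 0.58 higher, and Cd68, Spi1 and Adgre1 lay between 0.10 and 0.14. The median of the 9 was 0.14, and that of all genes -0.24. The fold for Csf1r rested on its probe at base 3806: with the median of its 3 levels on each array it was -0.25.

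In KO, AGO2-RIP exceeded IgG-RIP by at least 2-fold for 0 of 9 genes, against 10.6% of 15616 genes, and 2 were at least 2-fold lower, Spi1 with -1.28 and Cd14 with -1.10, against 9.96%. Csf1r was 0.10, Maf 0.04 and Lgals3 -0.00, and the remaining 4 lay between -0.49 and -0.34. The median was -0.35, where all genes had -0.19. Cd14 thus had less signal with AGO2 than with control IgG, by nearly the same amount in both genotypes. In limma over both genotypes Cd14 was 1.05 ± 0.41 (SE) lower, with an unadjusted p of 0.0477 and a Benjamini-Hochberg adjusted p of 0.260. The fit called 0 of 18891 genes in this contrast, so 0 of 9 members, with 3569 at an unadjusted p under 0.05.

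**Figure D5:**
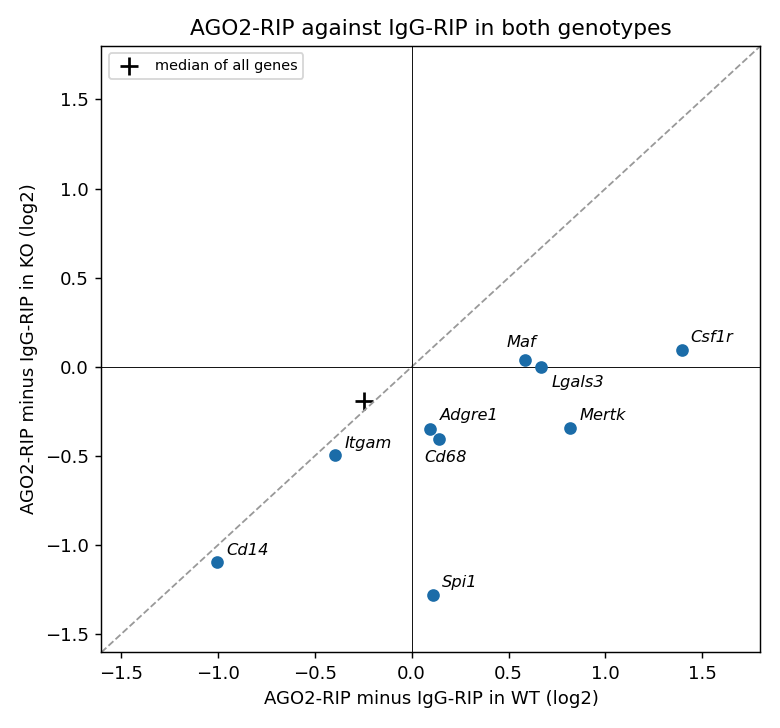
Log2 difference of AGO2-RIP from IgG-RIP in WT (horizontal) and in KO (vertical) for the brightest probe of each of the 9 genes, 1 array minus 1 array on each axis, with no error; the dashed line marks equal differences and the cross the median of all genes. All 9 points lie below the dashed line, Cd14 by 0.09 and Spi1 by 1.39.

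The signed difference AGO2-RIP minus IgG-RIP was higher in WT than in KO for each of the 9 genes by its brightest probe, from 0.09 for Cd14 to 1.39 for Spi1, with a median of 0.55. Of all 13998 genes measured on the 4 arrays, 51.3% had a positive difference and the median was 0.04. The WT minus KO difference reached 2-fold for 3 of 9, Spi1 with 1.39, Csf1r with 1.30 and Mertk with 1.16, against 20.2% of all genes, and was at least 2-fold negative for 0, against 16.5%. The dimmer probes did not show it. Of the 7 other probes of these genes 2 were positive, both of Csf1r, and 5 negative, and the signs were mixed in 4 of the 5 genes with several probes. At its second probe Adgre1 had -0.64 in place of 0.45, Maf -0.38 in place of 0.55 and Cd68 -0.17 in place of 0.55, and the coding Itgam probes had -0.82 and -0.83 in place of 0.10. With quantile normalization 8 of the 9 were positive, and with the median of each gene's probes 7.

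The IgG-RIP arrays carried most of the genotype difference for Spi1 and Mertk. KO minus WT IgG-RIP was 1.41 for Mertk, 1.40 for Spi1 and 1.02 for Adgre1, so 3 of 9 genes were at least 2-fold higher in KO, against 11.1% of 14847 genes, and 0 lower, against 8.97%. With normexp background correction 1 of the 9 reached 2-fold. Maf was 0.97 and Csf1r 0.58, which was the median of the 9; the median of all genes was -0.02. In AGO2-RIP the same 3 genes gave KO minus WT differences of 0.25 for Mertk, 0.01 for Spi1 and 0.58 for Adgre1, and 0 of 9 genes reached 2-fold in either direction, against 7.03% higher and 11.2% lower among all genes. Adgre1 differed at both probes, by 1.35 in AGO2-RIP and 0.71 in IgG-RIP at base 2732. Csf1r differed in both precipitates at base 3806, 0.72 lower in KO AGO2-RIP and 0.58 higher in KO IgG-RIP. At bases 2871 and 1841 it was level in AGO2-RIP, with -0.03 and -0.04, and 0.52 and 0.26 higher in KO IgG-RIP.

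Other genes of the myeloid programme were counted in the same way in AGO2-RIP minus IgG-RIP, where 20.5% of all genes were at least 2-fold higher and 22.2% lower in WT, and 10.6% and 9.96% in KO. Of 17 other myeloid transcription factors, 9 were at least 2-fold higher in WT and 1 lower, with a median of 1.05, from Tfec at -1.31 to Cebpd at 4.19. Of the 14 measured in KO, 6 were higher and 0 lower, with a median of 0.86, from Irf8 at -0.50 to Cebpd at 3.58. Spi1, at 0.11 and -1.28, and Maf, at 0.58 and 0.04, lay below both medians. Cebpd encodes C/EBPδ, a factor induced in inflammatory responses.

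Of the other phagocytic and scavenger receptor genes, to which Mertk and Cd68 are closest in function, 8 of 17 were at least 2-fold higher in WT and 1 lower, led by Mrc1, the mannose receptor, at 2.85. In KO, 3 of 19 were higher and 1 lower, led by Scarb1 at 2.15. Among other myeloid surface genes 2 of 9 were higher in WT and 1 of 9 in KO, led by Cd200r1 at 5.31 and 3.13, and 0 were lower in either. Itgb2, the beta chain that pairs with CD11b, was picked with its values known. It was -0.53 and -0.49, and Itgam was -0.39 and -0.49 at base 4431. At its coding probes, bases 270 and 3410, Itgam was -1.08 and -1.45 in WT and -0.25 and -0.62 in KO. Of 4 galectin genes measured besides Lgals3, 3 were higher in WT and 2 in KO, led by Lgals3bp, a binding partner of galectin-3, at 2.99 and 1.65. Of the growth factor and receptor genes, 1 of 6 was at least 2-fold higher in WT and 1 lower, Csf3r at -1.03. In KO, 1 of 7 was higher and 0 lower. Their medians were -0.22 and -0.24, near those of all genes, -0.24 and -0.19. Csf1, which encodes the ligand of CSF1R, was the highest of them, at 1.93 and 1.06. Of the macrophage effector genes, 1 of 4 was higher in WT and 0 of 5 in KO, and 0 were lower in either.

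In limma, 0 genes of these lists were called in AGO2-RIP against IgG-RIP. In IgG-RIP against input, where 15.9% of all genes were called lower and 14.3% higher, 5 of 17 transcription factors fell, Irf5, Cebpd, Klf4, Ets2 and Cebpa, named because they passed, after their values were seen. Tyrobp and Fcgr2b fell among 20 phagocytic genes, and Cd52, Aif1 and Lgals9 were the 1 gene each that fell in the surface, effector and galectin lists. Csf3r and Flt3 rose among 7 growth factor and receptor genes. In AGO2-RIP against input, where 4.23% were called higher and 5.31% lower, Klf2 (2.45, adjusted p = 0.0398 in limma) and Csf1 (2.48, adjusted p = 0.0388 in limma) rose, and 0 genes of the lists fell besides Cd14. Cd14 and Csf1 thus moved in opposite directions in that contrast.

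The profiles of the 9 genes over the 6 arrays were compared with each other and with those of other genes. The closest pair, Maf and Adgre1, had a Euclidean distance of 0.73 between profiles centred on their own means, and Maf and Mertk followed with 0.84. Each of the 9 had closer neighbours outside the list among 12316 genes above background on all 6 arrays. With so many more genes than members searched, this was likely beforehand. Distances between other pairs of genes were not computed, so how alike the 9 are cannot be judged from it. The nearest genes with a symbol were Eps15 for Csf1r (0.213), Selenop for Adgre1 (0.154), Hexim2 for Itgam at base 4431 (0.116), Prelid3b for Lgals3 (0.167) and ND6 for Cd68 (0.189). Fcho2 was nearest to Mertk (0.332) and AW061147 to Spi1 (0.311). Cd14 had the most distant neighbour of those named here, Mvb12a, at 0.557. These distances describe 6 single arrays and carry no test.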

How the data were processed

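The deposited files hold the output of Agilent Feature Extraction, for 6 one-colour (Cy3) mouse arrays; the submitters' processing notes give its version as 10.7.3.1. Per the labels' protocols, precipitated and input RNA was reverse-transcribed, pre-amplified and labelled by random priming, and an equal mass of cDNA was used for each sample, so all values are relative abundances within an array. Per the file headers, spots carry an intensity on a linear scale from which background was subtracted, with no normalization between arrays. Coordinates are those of the files, on mm9.

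Each level is log2 of that intensity, scaled to the array's 75th percentile of non-control spots. Replicate spots were averaged, outlier spots removed 54 probes (0 of them members), and the probe with the highest mean signal represented a gene. Gene names were updated through a RefSeq table (GRCm38.p6, names only): 27628 probes by accession, 3404 by symbol, 320 by synonym, and 24275 kept the array's name. A gene was measured in a comparison when well above background on each of its arrays, and was counted at 2-fold. Limma 3.58.1 in R 4.3.3 used lmFit and eBayes, two-sided, with Benjamini-Hochberg over 18891 genes above background on at least 2 arrays. Fraction and genotype were additive terms, the interaction serving as error. The fit was also run on simulated data with independent noise of the same SD for every gene and no interaction. That run therefore does not check this error. Since nothing says that samples came from separate animals, limma's p-values measure only the spread between these arrays. Python 3.11.15 (scipy 1.17.1, pandas 2.3.3, numpy 2.4.6) did the rest.

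The members and gene lists were chosen with earlier results of these data known. Named genes are the members, the genes that check the labels, the highest and lowest gene of a list in a comparison, and the nearest profiles; others are said to be chosen after their values were seen. The alternatives were normexp background correction (offset 50), centring on the median, quantile normalization, no filter on dim genes, only genes measured on all 6 arrays, the median of a gene's probes, and leaving out each array. Leaving out probes with a repeat of 12 or more alternating C and A bases was added after seeing the data. RefSeq promoter and microRNA sequences were not used here, and 2 genes of the lists and nearest profiles are not reported here.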

Additional observations from a re-analysis of the deposited data

Results flagged for a closer look

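For 2 genes the 2 genotypes pointed in opposite directions under 1 contrast, by more than the spot noise on each side. These differences were not tested, since each rests on 1 array per group. In AGO2-RIP minus IgG-RIP, Mertk was 0.82 in WT and -0.34 in KO, a WT minus KO difference of 1.16. Mertk was also 0.55 lower in IgG-RIP than in input in WT and 0.41 higher in KO, a WT minus KO difference of -0.96. Spi1 was 0.99 lower in IgG-RIP than in input in WT and 0.71 higher in KO, a difference of -1.70. All 3 comparisons include the IgG-RIP arrays, on which Mertk and Spi1 were 1.41 and 1.40 higher in KO than in WT. Each gene was read by 1 probe.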

How the results depend on the processing

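No paired analysis was possible because the labels give no replicate numbers and each group has 1 array; the limma fit itself holds genotype and fraction as blocks of each other. The number of the 9 genes at 2-fold changed by over 1.5 times in the following cases, and by 1 gene in others. With normexp it was 1 in place of 2 for AGO2-RIP minus IgG-RIP in WT, 1 in place of 2 for the same in KO, and 1 in place of 3 for KO minus WT IgG-RIP. With centring on the median it was 5 and 6 in place of 3 for AGO2-RIP minus input in WT and KO, 8 in place of 4 and 4 in place of 2 for IgG-RIP minus input in WT and KO, and 1 in place of 0 for KO minus WT AGO2-RIP. With quantile normalization it was 1 in place of 4 for IgG-RIP minus input in WT. Centring on the median moved the median of all genes for IgG-RIP minus input from -0.46 to -1.05 in WT and from -0.26 to -0.75 in KO, and quantile normalization moved them to -0.14 and -0.06, so counts against input follow the scaling. The share of higher genes among all those at 2-fold in IgG-RIP minus input in WT was 33.4%, 17.9% with centring on the median and 45.7% with quantile normalization. In AGO2-RIP minus IgG-RIP in WT it was 47.96%, and 68.3% with normexp.

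The members called by limma in AGO2-RIP over input numbered 1, and 2 with normexp, centring on the median, only genes above background on all arrays or the median of probes, 0 with quantile normalization, and 0 to 2 when an array was left out. In IgG-RIP over input 1 was called, 4 with normexp, 3 with centring on the median, 0 with quantile normalization, 0 with no filter on dim genes, 3 with genes above background on all arrays, and 0 to 1 when an array was left out. Over all genes, AGO2-RIP over IgG-RIP had 0 calls, 263 with normexp, 593 with genes above background on all arrays, and 676 without the KO IgG-RIP array, 0 of them members. AGO2-RIP over input had 1803 calls, 3630 with normexp, 0 with quantile normalization, 967 with no filter, 3726 with genes above background on all arrays, and 0 to 4675 when an array was left out. IgG-RIP over input had 5690, 3317 with quantile normalization, and 0 to 7319 when an array was left out. KO over WT had 0, 2 with normexp, and 1 without either IgG-RIP array. A left-out array leaves 1 array in its fraction, assumed to vary like the others.

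Of 90 differences of the 9 genes, 18 changed sign with quantile normalization, 15 with the median of probes, 5 with centring on the median, 5 without repeat-bearing probes and 2 with normexp. Of those at 2-fold, 1 changed sign: Csf1r in AGO2-RIP minus IgG-RIP in WT, -0.25 with the median of probes in place of 1.39. In limma's IgG-RIP over input, Adgre1 also changed sign, though it was neither at 2-fold nor called. It was 0.042 with quantile normalization (adjusted p = 0.941 in limma) in place of -0.86 (adjusted p = 0.162 in limma). The probe read a different stretch of Csf1r in the first case; the cause of the second was not tested. Without the repeat-bearing probe, 8 Itgam differences moved by more than the spot noise. The number of arrays limits the precision of every value.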
